A study of Arabidopsis thaliana with 8 samples.

Results

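The clade A protein phosphatases type 2C (PP2C) of Arabidopsis thaliana are the negative regulators at the core of abscisic acid (ABA) signalling. Their 9 genes were chosen by function: ABI1 (AT4G26080), ABI2 (AT5G57050), HAB1 (AT1G72770), HAB2 (AT1G17550), AHG1 (AT5G51760), PP2CA (AT3G11410, also AHG3), HAI1 (AT5G59220), HAI2 (AT1G07430) and HAI3 (AT2G29380). All 9 were among the 25102 genes tested on the array. Leaves of 54-day-old plants were compared between 35S::Rap2.9-GFP, a transgenic line in the Col-0 background that expresses the AP2/ERF transcription factor RAP2.9 fused to green fluorescent protein, and wild-type Col-0. In this line the strong viral 35S promoter drives the fusion in most cell types, and the number of independent lines behind the samples is not stated in the labels. Neither genotype was treated. Each genotype had 4 arrays, which the design text calls biological replicates without saying how many plants each pooled, and each of 2 slides held 2 arrays of each genotype.

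ABA is the hormone of drought and seed dormancy. Without it, clade A phosphatases hold SnRK2 protein kinases in the dephosphorylated, inactive state. When ABA binds a receptor of the PYR/PYL family, the receptor docks onto the phosphatase and blocks its active site, and the released SnRK2 kinases phosphorylate bZIP transcription factors and guard cell ion channels. Several clade A genes are themselves switched on by ABA, which makes them both brakes on the pathway and part of its output. In leaves the pathway is best known for closing stomata, and in older leaves for promoting senescence.

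Signals are given as a percentage of the same array's 75th percentile, and changes as log2 differences, 35S::Rap2.9-GFP minus Col-0. Between 72.4% and 84.3% of probe spots were well above background, the highest on transgenic replicate 1. The 75th percentile signal differed between arrays. It was 2572, 1699, 2576 and 2562 on transgenic replicates 1 to 4, against 2150, 2050, 1724 and 1724 on Col-0 replicates 1 to 4. Transgenic replicates 1, 3 and 4 were above every Col-0 array, and transgenic replicate 2 was the lowest of all. The part of the 75th percentile in the results was not tested beyond the other scalings. Transgenic replicate 1 also stood apart in the authors' deposited value table, where its Pearson's r with the centred scanner values across probes was 0.658, against 0.851 to 0.969 for the other arrays. One RAP2.9 probe was higher in the transgenic leaves by 4.14 ± 0.15 (SE) and the other was lower by 1.77 ± 0.23 (SE). Probe positions relative to the transgene are not known here. Of 5 leaf mesophyll markers, all 5 passed the filter on low signal. They summed to 44900 to 58000% of the 75th percentile in 35S::Rap2.9-GFP and 43800 to 52000% in Col-0. In whole leaves, fewer cells of a type and less RNA per cell cannot be told apart.

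Transcripts of 3 clade A genes, HAI1, HAI2 and ABI1, were higher in 35S::Rap2.9-GFP leaves, and none of the 9 was lower. HAI1 was 2.6-fold higher, HAI2 1.4-fold and ABI1 1.33-fold, by limma with Benjamini-Hochberg adjustment over all genes tested and a threshold of 0.05. The other 6 genes did not pass. Among all genes tested, 34.6% passed in either direction, 18.6% as higher and 16% as lower. The count of 3 of 9 was close to the share in either direction. All 3 were higher, beside 18.6% of all genes, and the list was not tested against all genes. For single probes these shares were 33.9% in either direction and 18.1% as higher. At an unadjusted limma p under 0.05, 4 of the 9 were higher and 0 lower, beside 6175 higher and 5218 lower of all 25102 genes tested. In HAI1, HAI2 and ABI1 every transgenic array was above every Col-0 array, as in 19.7% of all genes, and in 0 of the 9 was every transgenic array below, as in 17% of all genes. The median log2 change was 0.28 over the 9 genes and 0.03 over all genes tested. Over the 9 it was 0.19 without transgenic replicate 1, 0.45 without transgenic replicate 3 and 0.47 without Col-0 replicate 3. The counts also depended on how spot signals were derived. With normexp, which took median spot signals and an offset of 50 in place of the processed signal, 0 of the 9 passed by limma (2 were higher at an unadjusted p under 0.05), and over all genes 1285 were higher and 1492 lower in place of 4657 and 4023.

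**Figure D1:**
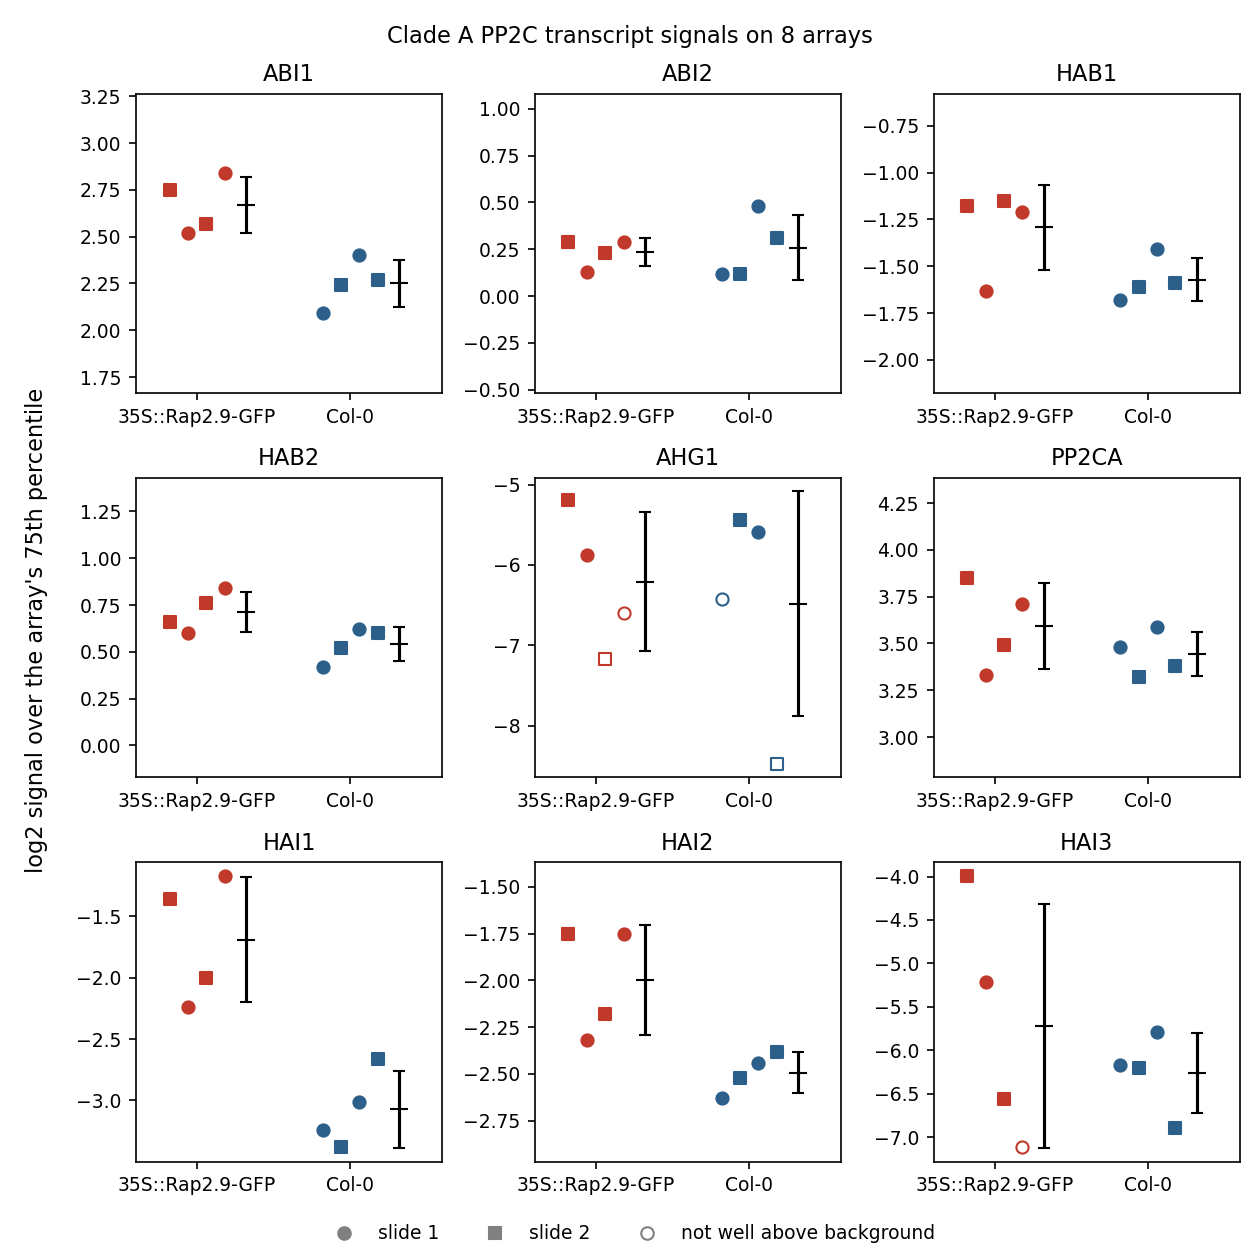
Signal of the 9 clade A PP2C genes on each array, as log2 over the array's 75th percentile, with transgenic arrays in red on the left and Col-0 arrays in blue on the right of each panel. Points run from replicate 1 to 4, circles are slide 1 and squares slide 2, open symbols are not well above background, black bars are the mean and SD of 4 arrays, and each panel has its own vertical range. The genotypes are apart for ABI1, HAI1 and HAI2 and overlap in the other 6 panels.

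HAI1, HAI2 and HAI3 are the highly ABA-induced PP2C genes. HAI1, also named SAG113, is a negative regulator of drought responses that is known for its expression in senescing leaves, where it holds back stomatal closure. The HAI1 signal was 38.9, 21.1, 25.0 and 44.5% in transgenic replicates 1 to 4, against 10.6, 9.64, 12.4 and 15.8% in Col-0 replicates 1 to 4. Every transgenic array lay above every Col-0 array, and transgenic replicates 1 and 4 were the highest. On the log2 scale the means were -1.69 ± 0.51 and -3.07 ± 0.31 (SD, n = 4 each), a change of 1.38 ± 0.27 (SE) with a limma adjusted p of 0.00725. This change was larger than that of 97.5% of all genes tested. It was 1.42 within slide 1 and 1.34 within slide 2, and 1.27 without transgenic replicate 1 (limma adjusted p = 0.0186). Of 23 alternative settings the call was lost in 1, the normexp correction, which gave a change of 0.93 (adjusted p = 0.11).

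HAI2 is a close relative of HAI1 and likewise a negative regulator of osmotic stress responses. Its signal was 29.7, 20.0, 22.1 and 29.8% in the transgenic replicates, against 16.2, 17.4, 18.5 and 19.3% in the Col-0 replicates. The groups did not overlap, but the lowest transgenic array and the highest Col-0 array were close. The means were -2.0 ± 0.29 and -2.49 ± 0.11 on the log2 scale (SD, n = 4 each), a change of 0.49 ± 0.15 (SE, limma adjusted p = 0.0358). Within the slides the change was 0.50 and 0.48, and it was positive under all 23 alternatives run, between 0.32 and 0.60. The call itself was near the threshold and was lost in 14 of them, with adjusted p up to 0.401. It was lost without transgenic replicate 1 (change 0.41, adjusted p = 0.0756), without transgenic replicate 4 and without each of the 4 Col-0 arrays in turn, with slide as a block (0.053), with quantile normalization (0.058) and with median scaling (0.0663).

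HAI3 was dim. Its signal was 6.29, 2.68, 1.06 and 0.717% in the transgenic replicates and 1.39, 1.36, 1.81 and 0.834% in the Col-0 replicates, and transgenic replicate 4 was not well above background. Transgenic replicate 1 was far the highest and replicates 3 and 4 lay within or below the Col-0 range. The change of 0.54 ± 0.66 (SE) did not pass (limma adjusted p = 0.559), with a 95% interval from -1.0 to 2.09. Without transgenic replicate 1 it was -0.04, so the sign of the HAI3 difference rested on that array.

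ABI1 and ABI2 are the founding members of the clade, identified through dominant mutants that no longer respond to ABA. ABI1 was bright on every array, at 671, 573, 593 and 714% in the transgenic replicates and 425, 474, 530 and 484% in the Col-0 replicates. All transgenic arrays were above all Col-0 arrays. The means were 2.67 ± 0.15 and 2.25 ± 0.13 on the log2 scale (SD, n = 4 each), a change of 0.41 ± 0.10 (SE, limma adjusted p = 0.0146), with 0.43 and 0.40 within the slides. Each of the 8 fits that left out 1 array kept the ABI1 call, with changes between 0.36 and 0.47, and the call was lost in 3 of 23 alternatives, among them normexp (0.47, adjusted p = 0.102).

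For ABI2 the signal was 122, 110, 118 and 122% in the transgenic replicates, against 109, 109, 140 and 124% in the Col-0 replicates. The transgenic values fell inside the Col-0 range. The change was -0.02 ± 0.09 (SE, limma adjusted p = 0.863) and its 95% interval, -0.24 to 0.19, left out a change as large as the 0.41 estimated for ABI1.

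HAB1 and HAB2 form the other pair of ABI-type phosphatases, and HAB1 acts with ABI1 in seeds and guard cells. HAB1 had 44.0, 32.4, 44.9 and 43.4% in the transgenic replicates, against 31.1, 32.8, 37.7 and 33.3% in the Col-0 replicates. Of the transgenic arrays 3 were above every Col-0 array and replicate 2 lay among them. The change of 0.28 ± 0.12 (SE) did not pass (limma adjusted p = 0.111), and was 0.13 within slide 1, which holds replicate 2, and 0.43 within slide 2. Without transgenic replicate 2 it was 0.39 (adjusted p = 0.0102). HAB2 had 158, 152, 169 and 178% in the transgenic replicates and 134, 143, 154 and 151% in the Col-0 replicates, with 1 transgenic array among the Col-0 values. Its change of 0.17 ± 0.07 (SE) did not pass (limma adjusted p = 0.103).

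PP2CA and AHG1 are best known from germination, where their mutants are hypersensitive to ABA, and PP2CA also acts on ion channels of guard cells. PP2CA had the only set of several probes among the 9 genes, and the 3 probes gave changes of 0.16, 0.22 and 0.18, none of which passed (limma adjusted p over all probes 0.359, 0.207 and 0.24). Its brightest probe read 1440, 1010, 1120 and 1310% in the transgenic replicates, against 1110, 995, 1200 and 1040% in the Col-0 replicates. Transgenic replicates 1 and 4 were above every Col-0 array and replicates 2 and 3 were within the Col-0 range. The change was 0.16 ± 0.12 (SE, limma adjusted p = 0.36), with a 95% interval from -0.13 to 0.44, and it was 0.07 without transgenic replicate 1.

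AHG1 was well above background on 2 of 4 transgenic and 2 of 4 Col-0 arrays, the fewest of the 9 genes. Its signal was 2.73, 1.71, 0.696 and 1.03% in the transgenic replicates and 1.16, 2.3, 2.08 and 0.282% in the Col-0 replicates, and the groups overlapped. The change of 0.27 ± 0.73 (SE, limma adjusted p = 0.8) had a 95% interval from -1.44 to 1.98. No difference was detected for AHG1, and its sign turned under 5 of 22 alternatives.

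**Figure D2:**
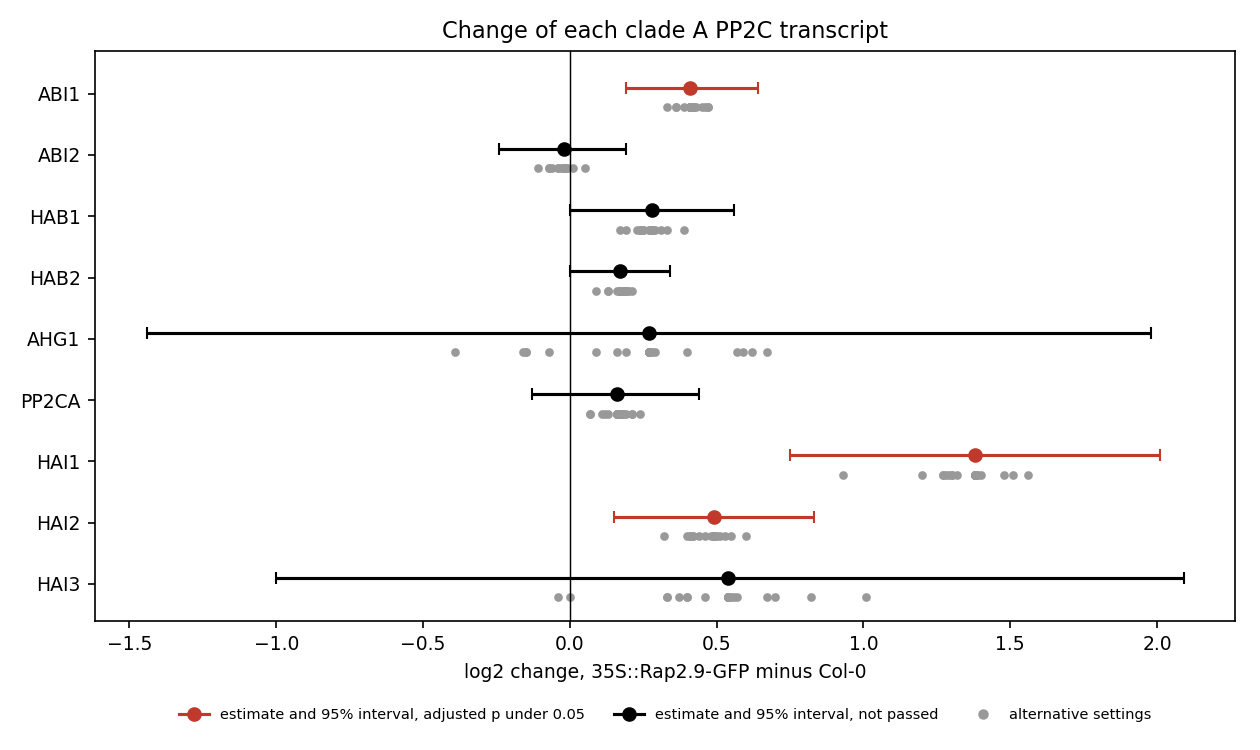
Fitted log2 change of each clade A PP2C gene, 35S::Rap2.9-GFP minus Col-0, with its 95% interval from limma (red where the adjusted p is under 0.05, black where not) and the estimates under the alternative settings as grey points beneath. HAI1, at 1.38, is the largest estimate, and AHG1 and HAI3 have intervals that run from below -0.9 to about 2.

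Whether close relatives changed by different amounts was tested on the difference of their log2 signals within each array, by an exact two-sided permutation test over the 8 arrays for 6 pairs. HAI1 changed by 0.89 ± 0.16 (SE) more than HAI2 and ABI1 by 0.44 ± 0.06 (SE) more than ABI2. In both pairs the 4 transgenic differences were all above the 4 Col-0 differences, and both had an exact p of 0.0286, the smallest that 4 against 4 arrays can give. Adjusted over the 6 pairs this was 0.0857 for each, so neither pair passed the correction. For HAB1 against HAB2 the difference of 0.10 ± 0.09 (SE) had an adjusted exact p of 0.514. Pairs with HAI3 or AHG1 had standard errors from 0.76 to 0.84 and did not pass, with adjusted exact p from 0.514 to 0.971.

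Within the transgenic group, replicates 1 and 4 gave the highest 2 signals for HAI1, HAI2, ABI1 and ABI2 and for each of the 3 PP2CA probes. The other 4 genes did not share this order: HAB1 was highest in replicates 3 and 1, HAB2 in 4 and 3, and HAI3 and AHG1 in 1 and 2. Replicates 1 and 4 replicates were on different slides. By likeness of profile over the 8 arrays, the 3 genes nearest to HAI1 were AFP1 (AT1G69260), MPK11 (AT1G01560) and CER1 (AT1G02205). Their centred log2 profiles differed from that of HAI1 by a root mean square of 0.14, 0.16 and 0.20. AFP1 codes for a protein that binds the bZIP factor ABI5, MPK11 for a mitogen-activated protein kinase and CER1 for an enzyme of wax alkane synthesis. In all 4 genes transgenic replicates 1 and 4 were 0.94 to 1.33 above the gene's mean and replicates 2 and 3 lay between -0.09 and 0.38. The 3 genes were picked for their likeness to HAI1 over these same 8 arrays, so the shared pattern follows from the choice.

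**Figure D3:**
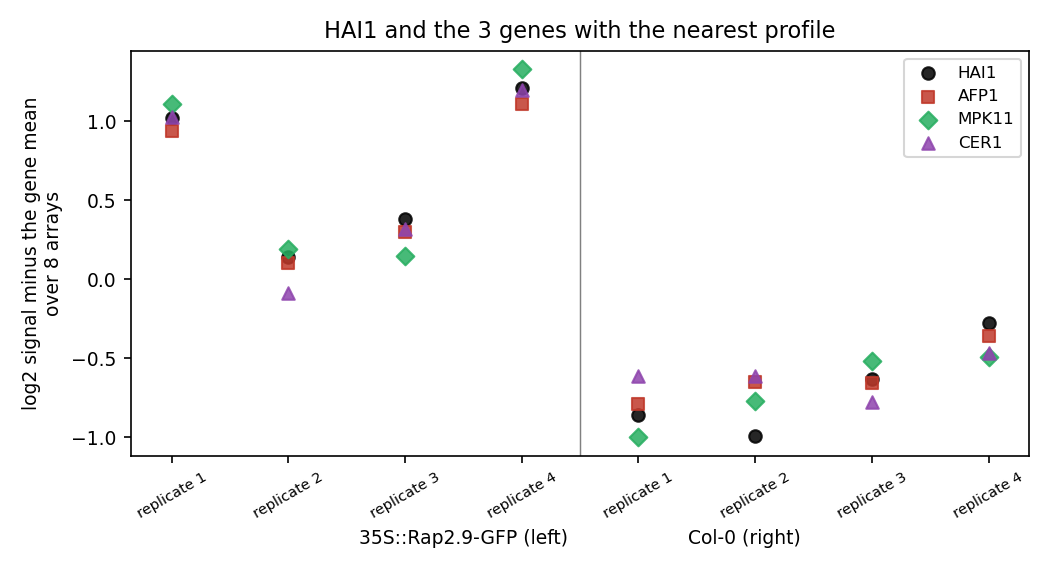
Log2 signal of HAI1 and of the 3 genes with the nearest profile, AFP1, MPK11 and CER1, minus each gene's mean over 8 arrays, for the 4 transgenic arrays on the left and the 4 Col-0 arrays on the right. Transgenic replicates 1 and 4 are high for all 4 genes, between 0.94 and 1.33, and Col-0 arrays lie between -1.0 and -0.28. The 3 genes were picked for this likeness on the same arrays.

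The counts below stand beside 18.6% of all genes tested as higher and 16% as lower. Upstream, 4 of 10 tested PYR/PYL receptor genes were lower, 1 was higher and 5 did not pass, while 4 of the 14 in the list were below the filter. PYL4 was lower by 1.62 ± 0.17 (SE, limma adjusted p = 0.000566) and PYL9 by 0.60 ± 0.08 (SE), while PYL2 was higher by 0.92 ± 0.14 (SE). Over the 10 the median change was -0.28, beside 0.03 over all genes. Among the 10 genes of the whole SnRK2 kinase family, 3 were higher, 1 was lower and 6 did not pass. The lower one was SNRK2.6, also OST1, the kinase of guard cell ABA responses, at -0.59 ± 0.12 (SE), with SNRK2.3 at 0.29 ± 0.06 (SE) and SNRK2.8 at 0.24 ± 0.07 (SE). The SNRK2.8 call was lost in 13 of 23 alternatives. With median scaling 0 of the 10 were higher and 2 lower, and with normexp none passed by limma (1 was higher at an unadjusted p under 0.05).

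Downstream, 4 of 7 tested group A bZIP genes, whose products bind ABA response elements, were higher and 1 was lower. ABF3 was higher by 0.48 ± 0.06 (SE) and ABF2 by 0.35 ± 0.07 (SE), and ABI5, best known from seeds, was lower by 1.04 ± 0.14 (SE, limma adjusted p = 0.00143). With median scaling 1 of the 7 was higher and 1 lower.

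Of 22 ABA response genes, 9 were higher and 6 lower, and 7 did not pass, with a median change of 0.36. The median was 0.13 without transgenic replicate 1 and 0.56 without transgenic replicate 3, and with normexp 5 were higher and 3 lower. The lipid transfer protein gene LTP4 was higher by 4.55 ± 0.63 (SE) and the proline synthesis gene P5CS1 by 2.59 ± 0.22 (SE). KIN2, which cold also induces, was lower by 2.47 ± 0.11 (SE). The other lower genes, chosen after their values were seen, were RD29A (-2.04), AFP4 (-1.31), RD29B (-0.78), AFP2 (-0.58) and RAB18 (-0.47). The RD29B and RAB18 calls were lost in 10 and 8 of 23 alternatives. With the mean of the probes of a locus the sign of the RAB18 change turned, so its direction depended on the probes used. Signals of the 22 genes summed to 13400 to 16100% in 35S::Rap2.9-GFP and 31000 to 35700% in Col-0. The sum thus went against the positive median. KIN2 was the brightest of the list in Col-0, and such sums weigh bright genes most. For ABA synthesis and breakdown, 1 of 11 genes was higher and 4 were lower. BGLU18, whose enzyme frees ABA from its glucose ester, was higher by 1.19 ± 0.19 (SE), and the ABA hydroxylase genes CYP707A4 and CYP707A1 were lower by 0.90 ± 0.17 (SE) and 0.58 ± 0.17 (SE). The CYP707A1 call was lost in 9 of 23 alternatives.

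Of 26 genes listed as partners or substrates of the phosphatases, 23 were tested, of which 7 were higher, 1 was lower and 15 did not pass. With median scaling 2 were higher and 3 lower, and with normexp 2 were higher and 1 lower. The higher count was 3 without any 1 of transgenic replicates 1, 3 and 4 and Col-0 replicates 3 and 4. DOG1, a seed dormancy protein that binds AHG1, was higher by 1.00 ± 0.17 (SE, limma adjusted p = 0.00373), the guard cell potassium channel gene KAT1 by 0.40 ± 0.12 (SE), and AT1G67800 was lower by 0.37 ± 0.06 (SE). The KAT1 call was lost in 8 of 23 alternatives. Of 26 tested PP2C genes of other clades, 6 were higher and 6 lower. AT1G07160 was higher at a fitted 2.14 ± 0.38 (SE), but only 2 of 4 Col-0 arrays were well above background, so the size is uncertain. Its call was lost in 2 of 22 alternatives, among them normexp. AT3G16800 and AT5G27930 were lower by 2.05 ± 0.10 (SE) and 1.5 ± 0.08 (SE). The median over these genes was 0.09, and -0.02 without transgenic replicate 4 and 0 with median scaling. With normexp 1 was higher and 5 lower, and no difference between this list and clade A was tested.

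**Figure D4:**
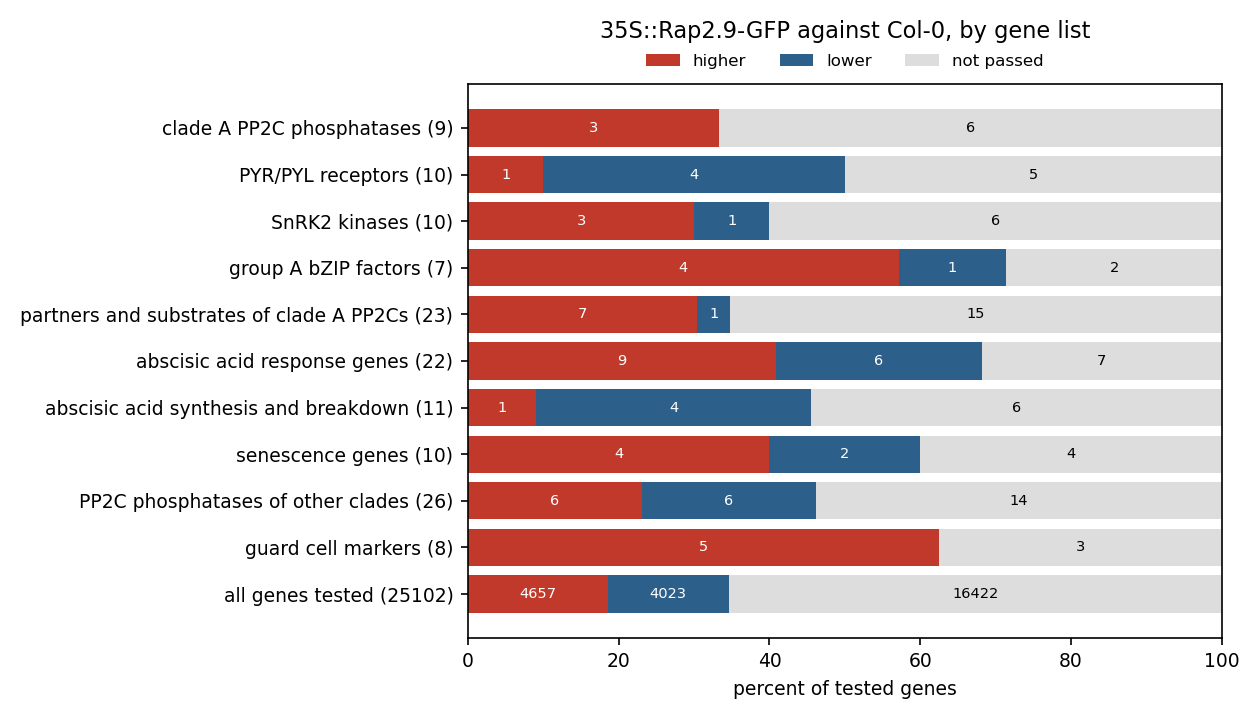
Share of the tested genes of each list that were higher (red), lower (blue) or not past the adjusted p threshold of 0.05 (grey) in 35S::Rap2.9-GFP against Col-0, with counts in the bars and the number tested in brackets. Clade A has 3 higher, 0 lower and 6 not passed, beside 4657 higher and 4023 lower of all 25102 genes.

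Markers of cell types and states in which clade A genes are known to act also differed between the genotypes, and their part in the results above was not tested. For guard cells and their lineage, 5 of 8 markers were higher and 0 lower by limma (6 and 1 at an unadjusted p under 0.05), among them AT1G22690 at 0.74 ± 0.15 (SE), MYB60 at 0.57 ± 0.12 (SE) and TMM at 0.55 ± 0.11 (SE). SLAC1, a guard cell anion channel gene, and ALMT12, chosen after their values were seen, were at -0.29 ± 0.12 (SE) and -0.18 ± 0.10 (SE) and did not pass. With normexp 1 of the 8 was higher, and the MYB60 and TMM calls were lost. Their signals summed to 642 to 686% of the 75th percentile in 35S::Rap2.9-GFP and 425 to 567% in Col-0. Of 10 senescence genes, 4 were higher and 2 lower, and of the 8 left with the filter on all arrays 2 were higher and 3 lower. The 10 had sums of 4590 to 5710% in 35S::Rap2.9-GFP and 5530 to 6840% in Col-0. SAG29 and SAG12 were at a fitted 4.66 ± 1.12 (SE) and 3.8 ± 1.13 (SE), but each was well above background on 1 of 4 Col-0 arrays and passed the filter through the transgenic arrays, so these sizes are uncertain. SAG13 was higher by 1.80 ± 0.37 (SE). The SAG12 call was lost in 14 of 22 alternatives. The lower genes, chosen after their values were seen, were the chlorophyll breakdown genes PPH at -0.94 ± 0.11 (SE, limma adjusted p = 0.00079) and NYC1 at -0.27 ± 0.08 (SE), whose call was lost in 11 of 23 alternatives. NAP, a NAC factor known to activate HAI1 in senescing leaves and chosen after its value was seen, was higher by 1.09 ± 0.20 (SE, limma adjusted p = 0.00504). ORE1, another NAC factor of the list and also chosen after its value was seen, went the other way. Its change of -0.43 ± 0.14 (SE) did not pass (limma adjusted p = 0.054), though every transgenic array was below every Col-0 array. The part of either factor in the HAI1 change was not tested.

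All 5 xylem markers were higher, with XCP1, IRX3 and IRX1 at 1.35 ± 0.43 (SE), 1.24 ± 0.27 (SE) and 1.24 ± 0.27 (SE) and sums of 158 to 246% in 35S::Rap2.9-GFP and 63.3 to 157% in Col-0. With normexp 0 of the 5 passed by limma (1 was higher at an unadjusted p under 0.05), and the XCP1 call was lost in 8 of 23 alternatives. Of 5 phloem markers, 1 was higher (SEOR1 at 0.83) and 2 were lower (SWEET11 at -0.61 and SWEET12 at -0.31), with sums of 1490 to 1750% in 35S::Rap2.9-GFP and 1840 to 2170% in Col-0. All 3 root markers were higher, PYK10 at 3.10, CASP1 at a fitted 1.41 with 2 of 4 Col-0 arrays well above background, and NRT2.1 at 0.59, with sums of 36.8 to 114% in 35S::Rap2.9-GFP and 8.74 to 17.9% in Col-0. With quantile normalization and with the deposited values 1 of the 3 passed. The NRT2.1 call was lost in 11 of 23 alternatives, and with normexp 0 of the 3 passed by limma (1 was higher at an unadjusted p under 0.05). Of the mesophyll markers LHCB2.1 was at 1.03 and CA1 at 0.96 and 3 did not pass. The CA1 call was lost in 4 of 23 alternatives. The median over the 5 mesophyll markers was 0.03, and 0.42 with the mean of the probes of a locus. Of 6 seed markers, relevant to AHG1, 4 were below the filter and 0 passed by limma. The lowest p among them was that of EM6 (1.45 ± 0.69, SE, adjusted p = 0.144), and the unadjusted p was above 0.05 for both tested.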

How the data were processed

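Per the file headers, the authors' scanner files hold spot intensity from Agilent Feature Extraction 11.5.1.1 (design 021169, 1 colour), with gProcessedSignal background-subtracted and detrended within the array and not scaled between arrays. The authors' deposited values hold log2 values centred per probe, with scale and normalisation unstated. Their column medians were -0.0146, -0.004, -0.0025 and 0.0019 for transgenic replicates 1 to 4 and 0.0015, 0.0116, -0.0036 and 0.0041 for Col-0 replicates 1 to 4.

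Values were log2 gProcessedSignal minus the array's 75th percentile over probe spots. Control spots (1417) and 25 to 63 outlier spots per array were left out. A probe was tested if well above background on at least 4 of 8 arrays (33160 of 43603 probes). Of all probes, 34348 matched a locus by RefSeq accession or locus tag, in the gene list of assembly TAIR10.1, and the other 9255 were grouped by the array's own identifier. Each gene took its brightest tested probe. Coordinates are omitted, since the array headers name the build TAIR10. Among member spots, 0 were saturated or outliers. The test between genotypes was two-sided, from lmFit and eBayes of limma 3.58.1 (R 4.3.3, data.table version 1.17.8), with Benjamini-Hochberg adjustment and intervals at 95%. P-values set the difference between genotypes against the spread between these arrays, and the number of arrays limits the precision. The fit was tested on simulated data.

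Members and lists were chosen with earlier results of these data known. Named were all 9 members, RAP2.9, up to 3 genes per list past the threshold with the largest change (or 1 with the smallest p), and the 3 genes nearest to the most changed member. The normexp alternative (offset 50) used median spot and background signals. Other alternatives were quantile and median scaling, the 75th percentile over probes above background on all arrays, other filters and a floor. Further ones were outlier spots kept, probe means, the deposited values, slide and replicate blocks, trended and weighted fits, and leaving out each array.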

Additional observations from a re-analysis of the deposited data

Results flagged for a closer look

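The HAB1 signal of transgenic replicate 2, at -1.63 on the log2 scale over the 75th percentile, lay far from those of the other transgenic arrays. Its gap to the nearest of them was 0.892 of the group's range, above Dixon's critical value for 4 samples. Of 18 groups of 4 arrays tested, 1 was marked in this way, and chance marks about 1 in 20.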

How the results depend on the processing

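Under 23 alternatives, HAI1, HAI2, ABI1, HAB1, HAB2 and PP2CA kept a positive change. With normexp 0 members were higher, and over all genes 1285 were higher and 1492 lower. Deviations of same-numbered arrays from their genotype means correlated at 0.155, -0.092, -0.323 and 0.275, and those of differently numbered arrays at -0.319 to 0.36. Such correlations do not record how samples were grown or harvested, so whether replicate numbers pair the arrays is not known. With the replicate block 1 member was higher, and with slide added also 1, with 2757 genes higher and 1866 lower. Under the block ABI1 (limma adjusted p = 0.0516, and 0.107 with slide) and HAI2 (0.064, and 0.119) were lost. With slide, calls of other named genes were lost too: AT1G07160, AT1G67800, SNRK2.3, SNRK2.6, SNRK2.8, ABF2, CYP707A1, CYP707A4, MYB60, PYK10, SWEET12, NYC1, SAG12, RAB18, RD29B, AFP2 and AFP4. The cause of these losses was not tested, but both blocks leave fewer residual degrees of freedom. Median scaling gave 3197 higher and 5012 lower genes, 38.9% higher among called genes in place of 53.7%. It moved the median of all genes by -0.086, and no filter on dim probes by 0.1, the most of any setting. Without 1 array, 2 to 4 members were higher and 0 lower, and 3523 to 4340 genes were higher and 3021 to 4011 lower. Array weights brought HAB1 past the threshold (adjusted p = 0.0421).

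The change of AHG1 was -0.16 with normexp, -0.15 with quantile normalization and -0.15 with the deposited table. Without 1 array it ran from -0.39 to 0.62 for AHG1, -0.07 to 0.05 for ABI2 and -0.04 to 1.01 for HAI3. The HAB1 minus HAB2 difference was -0.02 with normexp. HAI2 minus HAI3 was 0.03 with quantile normalization and 0.32 with normexp, and PP2CA minus AHG1 was 0.33 and 0.37. Without 1 array these pairs ran from 0.05 to 0.18, -0.60 to 0.44 and -0.51 to 0.53, against 0.40 to 0.48 for ABI1 minus ABI2, 0.79 to 0.98 for HAI1 minus HAI2 and 0.19 to 1.30 for HAI1 minus HAI3. AHG1 and HAI3 were not tested with the filter on all 8 arrays, since some of their spots were not well above background. Across the alternatives, higher genes numbered 0 to 1 for receptors, 0 to 3 for SnRK2 kinases, 1 to 4 for bZIP factors, 2 to 8 for partners, 5 to 9 for response genes, 1 to 2 for synthesis and breakdown, 1 to 6 for other PP2Cs and for guard cell markers, 2 to 4 for senescence genes, 0 to 5 for xylem and 0 to 3 for root markers. Lower genes numbered 3 to 5, 0 to 2, 1 to 2, 0 to 3, 2 to 6, 1 to 5, 4 to 7, 0 to 1, 1 to 4, 0 and 0 in the same lists.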
